A study of Mus musculus with 12 samples.

Results

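The constitutive proteasome subunits and their regulators were taken as the mouse protein-coding genes whose symbols begin with Psma, Psmb, Psmc, Psmd, Psme, Psmf or Psmg followed by a number. The immunosubunit genes Psmb8, Psmb9 and Psmb10 were left out and serve below as a point of comparison. The choice gave 44 genes among the 15555 of the count table, and all 44 were among the 12671 genes that passed the filter on low counts. They were measured by RNA sequencing in 12 libraries of mouse bone-marrow-derived macrophages, that is, marrow cells grown to day 9 in medium with L-cell supernatant as the source of CSF-1, from which the adherent cells were taken. The 4 genotypes, with 3 libraries each, were wild type (WT), Cbl-/-, Cbl-b-/- and a double knockout carrying both (DKO). Cbl and Cbl-b are ubiquitin ligases that act on activated receptors, the CSF-1 receptor among them. The labels give no strain, age, sex or construct for the mice, and do not say whether the 3 libraries of a genotype came from separate mice, so a p-value here reflects only how far these libraries vary, and that variation may be technical.

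The proteasome degrades proteins that carry ubiquitin chains. Its core particle (20S) is a barrel of stacked alpha and beta rings whose catalytic beta subunits (Psmb5, Psmb6 and Psmb7) cut the substrate, and its regulatory particle (19S) holds a ring of ATPases (Psmc genes) that unfold the substrate and non-ATPase subunits (Psmd genes) that bind and remove ubiquitin. Other caps can replace the regulatory particle (Psme genes), chaperones assemble both particles, and in cells exposed to interferon the immunosubunits Psmb8, Psmb9 and Psmb10 can take the places of Psmb5, Psmb6 and Psmb7. Macrophages use this machinery to turn over signalling proteins and to make peptides for presentation on class I molecules.

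Total counts ran from 21048103 to 43946503 per library. Levels are given below as CPM, counts scaled to a common library size, with TMM scaling to correct the library totals for differences in composition. Cbl itself stood at 140.2 CPM in WT and 139 in Cbl-b-/-, against 51.5 in Cbl-/- and 37.6 in DKO, whereas Cblb stood at 59.4 CPM in WT, 52.8 in Cbl-b-/- and 71.7 in DKO. The total of Cblb reads therefore did not mark the libraries labelled as Cbl-b knockouts, and Cbl-b-/- and DKO below stand for the libraries so labelled. All 8 macrophage markers examined (among them Csf1r, Adgre1 and Cd68) were present, with summed levels of 19860 to 21930 CPM in WT and 16840 to 20070 in DKO, where 4 of the 8 fell against WT and 1 rose. The 5 granulocyte markers with values (S100a8, S100a9, Ngp, Ltf and Cxcr2) summed to 2.80 to 3.97 CPM in WT and to 64.2 to 87.0 in DKO, and the 5 monocyte markers to 56.1 to 61.6 CPM in WT and 141 to 189 in DKO. Of the 5 monocyte markers, 4 rose in DKO against WT and 1 did not pass, with a log2 difference of -0.34. The defining granulocyte markers Ly6g, Mpo, Elane and Camp had no values and were not analysed here. Stromal or endothelial markers (4 of 5 with values) summed to 3.39 to 5.61 CPM in WT and 12.3 to 15.8 in DKO. Megakaryocyte markers (2 of 3) summed to 62.2 to 74.3 in WT and 28.9 to 33.3 in DKO, but only 1 of them passed the filter on low counts. Dendritic cell markers (4 of 5) summed to 0.965 to 1.10 CPM in WT and 2.67 to 2.79 in DKO, and the mast cell marker Kit, the only one of 4 with values, lay at 0.31 to 0.50 in WT and 1.46 to 1.90 in DKO. Summed markers of T, B and NK cells stayed at or below 1.01 CPM in every library. In such bulk samples, fewer cells of a type and less RNA per cell cannot be told apart.

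The sequences before the start sites of a few members are shown first, because the genes that rose most (Psme1, Psme2 and Psmd10), a pair of catalytic subunits (Psmb5 and Psmb6) and a member that did not pass the test (Psmd9) can then be read beside their values. Each stretch runs from 250 bases before the start site to 25 bases after it, 5′ to 3′ on the gene's strand, from RefSeq on GRCm38.p6. Capitals mark matches, on either strand, to CCAAT (the CCAAT box), TGACNNNGC (the core of the antioxidant element, to which Nrf1 and Nrf2 bind with small Maf proteins), the interferon element (a pair of GAAA runs with NN between them) and TTCNNNGAA (a gamma-activated element).
Psme1 chr14:55578244-55578518, plus strand: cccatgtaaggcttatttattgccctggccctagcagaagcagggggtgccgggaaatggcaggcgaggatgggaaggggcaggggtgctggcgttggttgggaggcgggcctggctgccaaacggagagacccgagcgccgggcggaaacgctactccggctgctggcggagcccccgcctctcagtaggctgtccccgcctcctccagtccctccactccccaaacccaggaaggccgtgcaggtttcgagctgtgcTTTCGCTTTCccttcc
Psme2 chr14:55591077-55591351, minus strand: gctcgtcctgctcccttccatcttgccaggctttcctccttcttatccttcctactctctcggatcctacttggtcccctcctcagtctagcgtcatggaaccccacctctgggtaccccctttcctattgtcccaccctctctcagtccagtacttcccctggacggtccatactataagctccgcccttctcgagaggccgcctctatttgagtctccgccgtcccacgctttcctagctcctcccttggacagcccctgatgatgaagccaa
Psmd10 chrX:140956687-140956961, minus strand: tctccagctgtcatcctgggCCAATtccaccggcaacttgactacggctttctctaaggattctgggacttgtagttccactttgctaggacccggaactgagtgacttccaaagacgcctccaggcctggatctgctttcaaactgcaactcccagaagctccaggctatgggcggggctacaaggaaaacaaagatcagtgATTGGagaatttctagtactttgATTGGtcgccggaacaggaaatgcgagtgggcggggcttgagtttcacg
Psmb5 chr14:54617971-54618245, minus strand: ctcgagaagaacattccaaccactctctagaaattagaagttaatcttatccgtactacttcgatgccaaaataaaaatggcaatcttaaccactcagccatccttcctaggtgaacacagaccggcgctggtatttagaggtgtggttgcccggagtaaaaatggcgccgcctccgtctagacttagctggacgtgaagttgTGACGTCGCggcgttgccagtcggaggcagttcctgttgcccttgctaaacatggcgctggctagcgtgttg
Psmb6 chr11:70525107-70525381, plus strand: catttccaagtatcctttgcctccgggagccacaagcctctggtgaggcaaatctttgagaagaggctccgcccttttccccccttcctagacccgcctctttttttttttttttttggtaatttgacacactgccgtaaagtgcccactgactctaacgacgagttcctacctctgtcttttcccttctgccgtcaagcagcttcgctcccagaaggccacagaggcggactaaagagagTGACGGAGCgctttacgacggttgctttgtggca
Psmd9 chr5:123227940-123228214, plus strand: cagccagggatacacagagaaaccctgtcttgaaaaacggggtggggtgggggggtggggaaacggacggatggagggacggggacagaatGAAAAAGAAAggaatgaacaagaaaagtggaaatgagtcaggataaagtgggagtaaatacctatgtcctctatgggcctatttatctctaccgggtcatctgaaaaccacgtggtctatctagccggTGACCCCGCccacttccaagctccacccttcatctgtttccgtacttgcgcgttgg
Psme1 holds an interferon element match just past its start site, Psmb5 and Psmb6 each hold a TGACNNNGC match close before it, Psmd10 holds 3 CCAAT matches, Psmd9 holds both the interferon element and TGACNNNGC, and the printed Psme2 stretch, from 1 of the gene's 2 windows, holds none of them.

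Of the 44 members, 36 had a window of this kind, taken for the counts as 300 bases, 250 before and 50 after the start. Psma8, Psmb1, Psmb2, Psmb7, Psmc3, Psmd3, Psmd7 and Psmg2 were not matched. TGACNNNGC occurred in 6 of the 36 (16.67%) and in 12.392% of all 32851 windows, with Psmb5, Psmb6, Psmc6, Psmd9, Psmd12 and Psme4 as the 6. Its stricter form TGACTCAGC, which is contained in it, occurred in 0 of the 36 and in 0.454% of all windows. The interferon element occurred in 5 of the 36 (13.89%) and in 3.443% of all windows, in Psmb3, Psmd4, Psmd9, Psme1 and Psmg4. Only Psmb3 and Psme1 of these 5 were among the members that rose in DKO. CCAAT occurred in 12 of the 36 (33.33%) against 37.408% of all windows, and TTCNNNGAA in 2 (5.56%) against 8.298%. A match is a description of the letters, and an absent match says only that they are not in this window.

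Most proteasome genes had a higher relative mRNA level in the DKO libraries than in the WT libraries. Of the 44 members, 30 rose and 0 fell at an adjusted p below 0.05 (edgeR's quasi-likelihood test, Benjamini-Hochberg adjustment over 12671 genes), and 14 did not pass. Over all genes tested, 35.4% passed in this comparison, 19.1% upward and 16.3% downward. The rises were small for most members, from a log2 difference of 0.14 for Psmd2 to 0.80 for Psme2, with a median over the 44 of 0.20 against -0.0029 over all genes. The difference was positive for 41 of the 44, the exceptions being Psma8, Psmd9 and Psmf1. For 34 members all 3 DKO libraries lay above all 3 WT libraries, a separation that 23.7% of all genes showed. Together the 44 genes made up 0.445% ± 0.0052 (SD, n = 3) of the counts in WT and 0.497% ± 0.0056 in DKO. The share was 0.457% ± 0.0022 in Cbl-/- and 0.456% ± 0.011 in Cbl-b-/-. After TMM scaling, where values are not shares of a fixed total, the sums were 0.442% ± 0.0051 in WT and 0.519% ± 0.015 in DKO. They were 0.449% ± 0.0014 in Cbl-/- and 0.447% ± 0.012 in Cbl-b-/-. When libraries were scaled by their total counts alone, 15 members still rose and 0 fell. With only the WT and DKO libraries fitted, 17 members rose and 0 fell, where 1990 of 12484 genes rose and 1592 fell. Scaling by totals shifted the median of all genes to a log2 difference of -0.07 and their split from 2423 higher and 2062 lower to 1773 higher and 2873 lower. The marker genes of other cell types given above moved with the same contrast, and their part in the result was not tested.

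**Figure D1:**
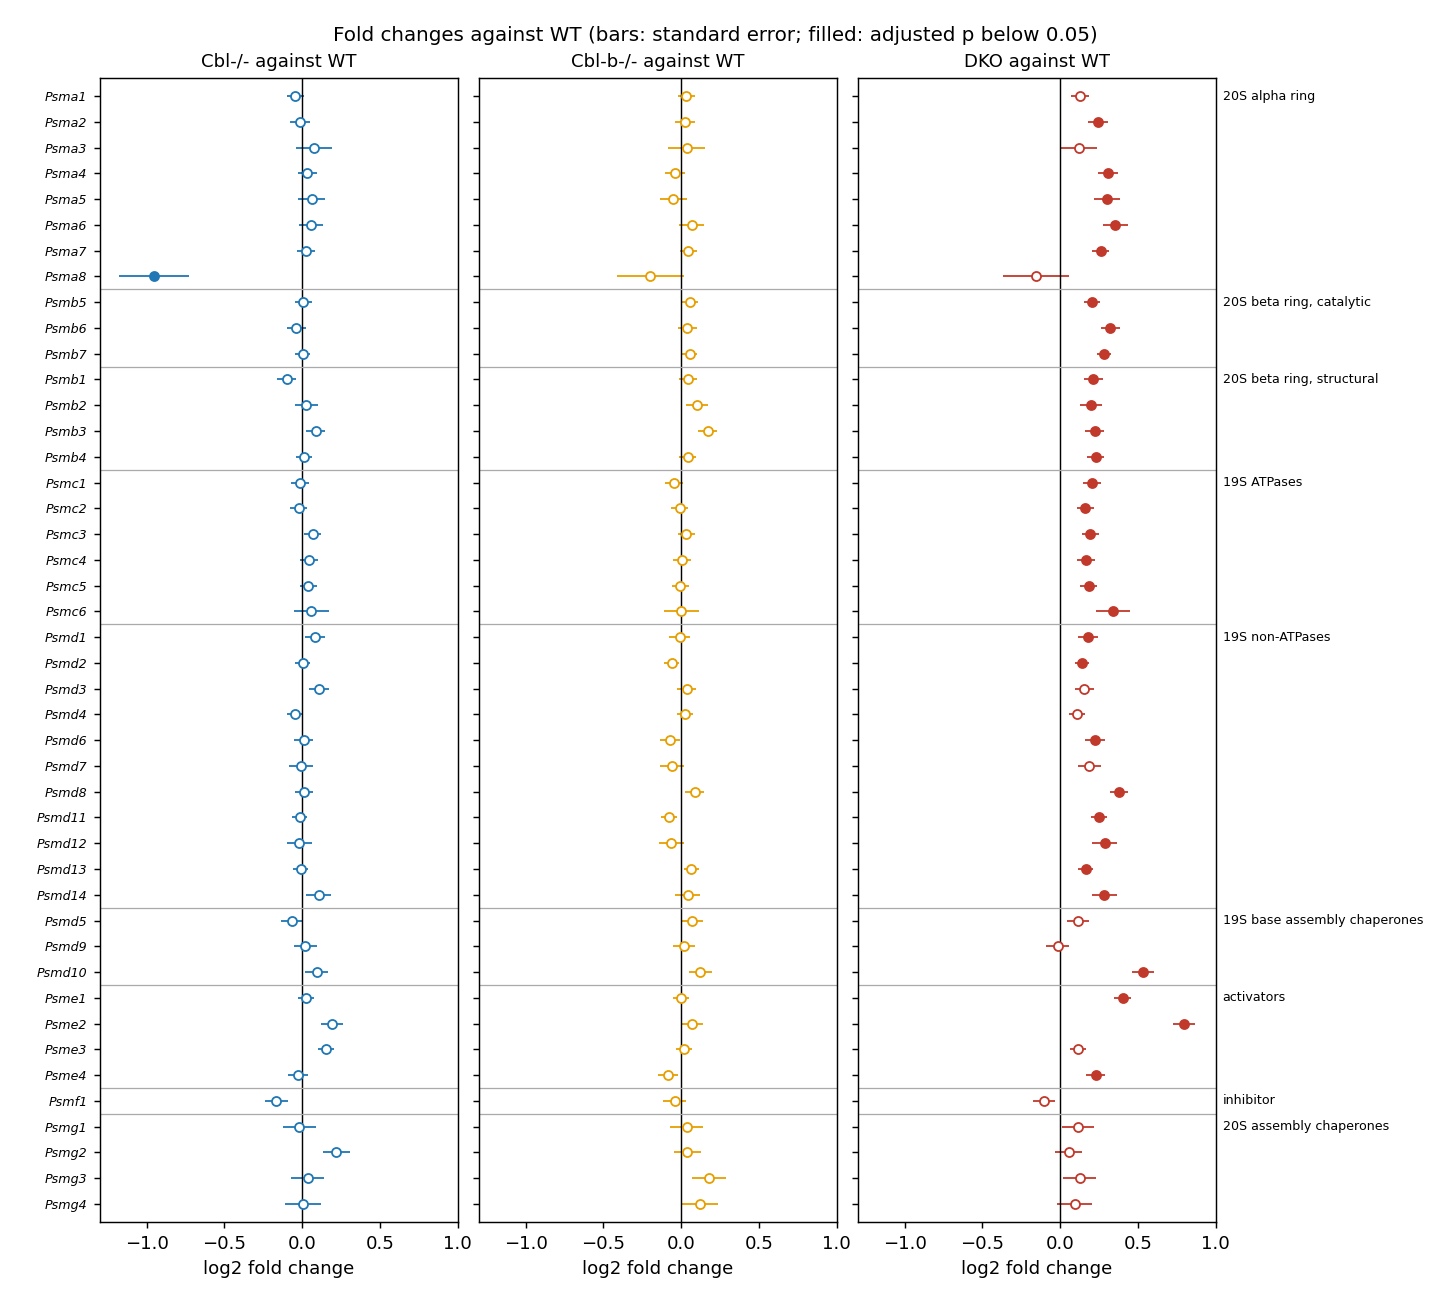
Log2 difference from WT (horizontal axis) of each of the 44 members, with its standard error, in Cbl-/-, Cbl-b-/- and DKO; members are grouped by role and filled points have an adjusted p below 0.05. In DKO 30 points are filled and all of them lie to the right of 0, in Cbl-/- 1 is filled (Psma8, to the left), and in Cbl-b-/- none is.

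The largest rise was that of an activator. Psme1 and Psme2 encode the subunits of PA28, a cap that opens the core particle without using ATP and favours the release of short peptides. Psme2 (ENSMUSG00000079197, chromosome 14, 55587441 to 55591113, minus strand, GRCm38) was at 60.8, 61.8 and 65.5 CPM in the 3 WT libraries and at 100.2, 114 and 112 in DKO. The groups were far apart, and the log2 difference was 0.80 (SE 0.07, adjusted p = 2.5e-07). Psme1 (ENSMUSG00000022216, chromosome 14, 55578123 to 55581529, plus strand), 5911 bp from it, was at 109.5, 108 and 109 CPM in WT and at 134, 146 and 152 in DKO, with a log2 difference of 0.40 (SE 0.05, adjusted p = 1.9e-05). Every DKO library again lay above every other library for this gene, while Cbl-/- (112, 109 and 111 CPM) and Cbl-b-/- (108, 112 and 108 CPM) overlapped WT. The ratio of Psme2 to Psme1 per length of transcript was 0.665 ± 0.026 (SD, n = 3) in WT and 0.874 ± 0.026 in DKO, and its values in the libraries did not overlap between these genotypes. In Cbl-/- the ratio was 0.745 ± 0.009, and all 3 of its libraries lay above WT and below DKO. In Cbl-b-/- it was 0.696 ± 0.054 and overlapped WT. Psme2 has a near-identical copy, Psme2b, so its reads may be shared in a way the counting does not reveal.

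Psme4, which encodes the nuclear activator PA200, was at 84.7, 87.4 and 86.3 CPM in WT and 99.0, 93.0 and 110.5 in DKO, a log2 difference of 0.23 (SE 0.06, adjusted p = 0.01). Psme3, the subunit of the nuclear form of PA28, did not pass at 0.12 (SE 0.05, adjusted p = 0.094), with 125, 119 and 118 CPM in WT and 128, 133 and 131 in DKO. Its highest mean was that of Cbl-/- (131, 134 and 138 CPM), where the log2 difference from WT was 0.15 (SE 0.05, adjusted p = 0.073).

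**Figure D2:**
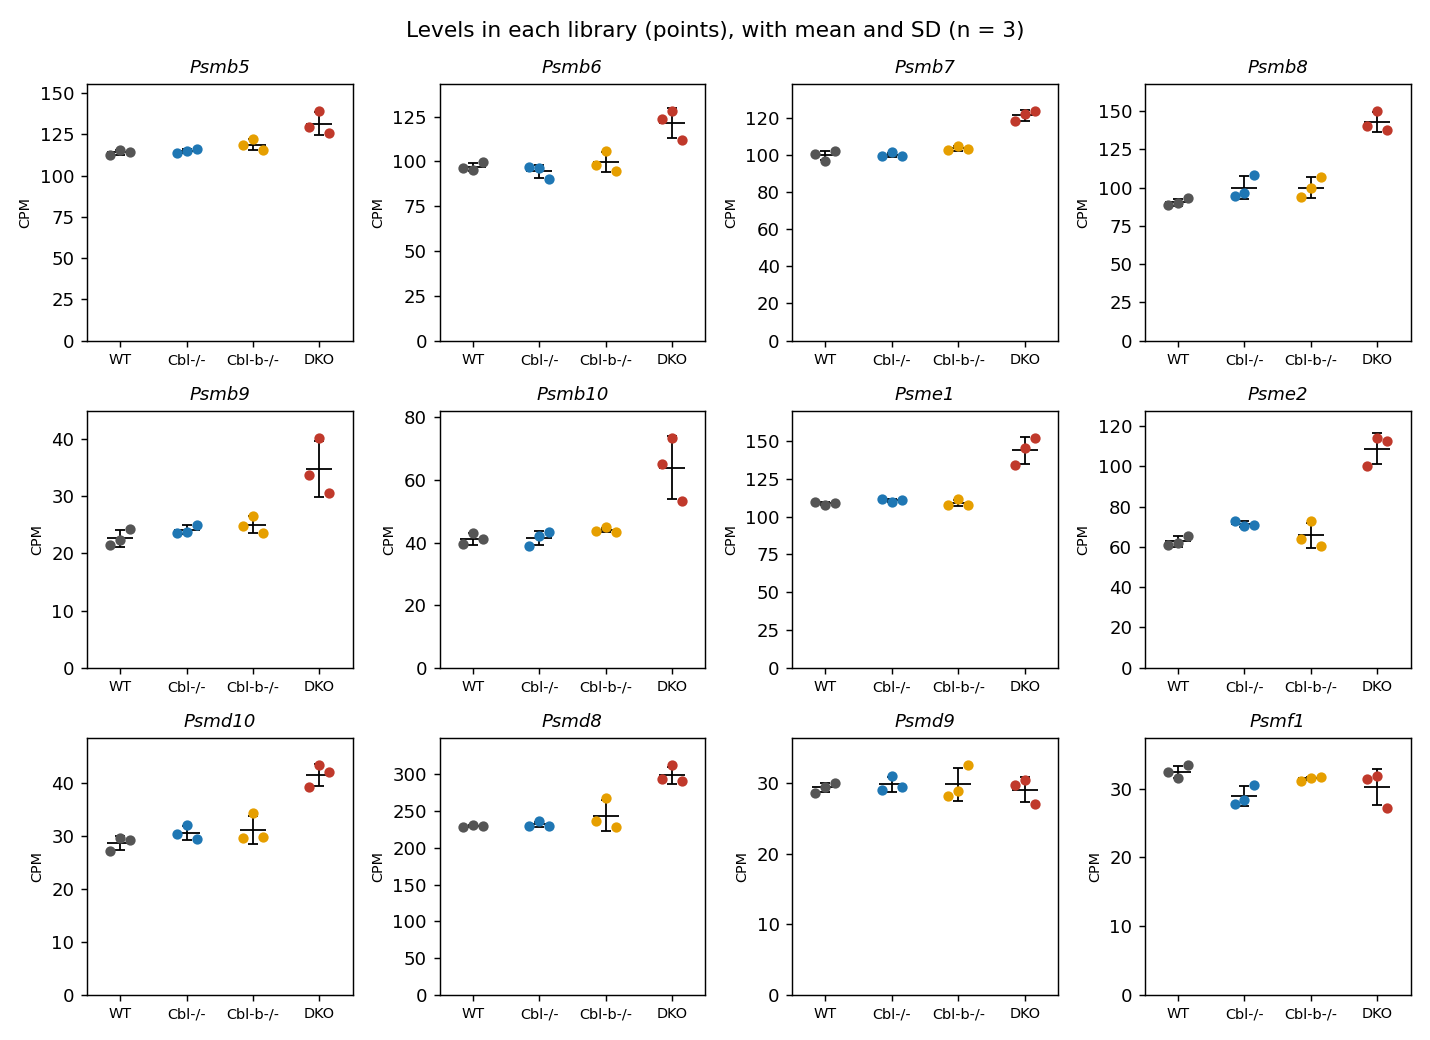
Level in CPM (vertical axis, linear from 0) in each of the 12 libraries for 12 genes, with points for libraries, and lines for the mean and SD of the 3 libraries of a genotype. DKO stands above the other genotypes for Psmb5, Psmb6, Psmb7, the immunosubunits, Psme1, Psme2, Psmd10 and Psmd8, and among them for Psmd9 and Psmf1.

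All 3 catalytic subunits of the core rose. Psmb5, the chymotrypsin-like subunit, was at 113, 115 and 114 CPM in WT and 129.7, 139 and 126 in DKO, with a log2 difference of 0.20 (SE 0.05, adjusted p = 0.0056). Psmb6, the caspase-like subunit, was at 96.4, 95.0 and 99.6 CPM in WT and 124, 128 and 112 in DKO, with a log2 difference of 0.32 (SE 0.06, adjusted p = 0.00066). Psmb7, the trypsin-like subunit, was at 101, 97.0 and 102 CPM in WT and 118, 122 and 124 in DKO, with a log2 difference of 0.28 (SE 0.05, adjusted p = 0.00023). For each of them the lowest DKO library lay above the highest WT library. With scaling by total counts Psmb5 lost its call, and Psmb6 and Psmb7 kept theirs. DKO 3 was the lowest DKO library for Psmb5 and Psmb6 and the highest for Psmb7.

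The 3 immunosubunits also rose, by larger log2 differences than the catalytic subunits they can replace. Psmb8 was at 88.2, 89.9 and 92.9 CPM in WT and 140.2, 149.9 and 138 in DKO, with a log2 difference of 0.66 (SE 0.06, adjusted p = 8.2e-07). The difference was 0.62 (SE 0.09, adjusted p = 6.1e-05) for Psmb9 and 0.63 (SE 0.09, adjusted p = 3.9e-05) for Psmb10. Per length of transcript, the ratio of Psmb8 to Psmb5 was 0.433, 0.431 and 0.449 in the WT libraries and 0.597, 0.595 and 0.607 in DKO, with no overlap. The ratio of Psmb9 to Psmb6 was 0.138 ± 0.0064 (SD, n = 3) in WT and 0.169 ± 0.014 in DKO, and that of Psmb10 to Psmb7 was 0.365 ± 0.024 in WT and 0.466 ± 0.077 in DKO. The DKO libraries of these ratios were at 0.161, 0.185 and 0.161 for the first and at 0.486, 0.531 and 0.381 for the second, where DKO 3 fell within the WT range for the second and all others lay above it. The constitutive catalytic mRNA thus stayed the more abundant of each pair per length in both genotypes. In Cbl-/- the ratio of Psmb8 to Psmb5 was 0.459, 0.465 and 0.517, also above every WT library. In Cbl-b-/- it was 0.437, 0.449 and 0.51. The ratio of Psmb9 to Psmb6 was 0.144, 0.146 and 0.164 in Cbl-/-, where Cbl-/- 3 lay above DKO 1 and DKO 3. In Cbl-b-/- it was 0.149, 0.148 and 0.147, all above WT. The mean ratio of Psmb10 to Psmb7 was 0.366 in Cbl-/- and 0.376 in Cbl-b-/-. These ratios were not tested.

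The structural beta subunits Psmb1, Psmb2, Psmb3 and Psmb4, which complete the beta ring without cutting, all rose in DKO, by log2 differences of 0.20 to 0.23. The call of Psmb2 was lost under 6 of the 14 alternatives, among them without DKO 2, where its difference was 0.11. With scaling by total counts Psmb1, Psmb2 and Psmb3 lost their calls and Psmb4 kept its own. Psmb4 was at 116, 117 and 115 CPM in WT and 134, 145 and 129 in DKO (log2 difference 0.23, SE 0.05, adjusted p = 0.0037). Psmb3 was at 79.1, 80.9 and 85.0 CPM in WT and 95.7, 102 and 88.0 in DKO (log2 difference 0.22, SE 0.06, adjusted p = 0.0094), and it was the member closest to a difference in Cbl-b-/-, where it stood at 88.2, 96.3 and 91.2 CPM. There the log2 difference was 0.17 (SE 0.06, adjusted p = 0.43). All 3 Cbl-/- libraries of Psmb3 (86.9, 87.8 and 85.3 CPM) also lay above WT, with a difference of 0.09 (SE 0.06, adjusted p = 0.48).

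Of the 8 alpha subunits, which form the outer gate of the barrel, 5 rose (Psma2, Psma4, Psma5, Psma6 and Psma7), by 0.25 to 0.36. Psma6 was at 117, 116 and 119 CPM in WT and 138, 137 and 176 in DKO, a log2 difference of 0.36 (SE 0.08, adjusted p = 0.0021). DKO 3 stood well above the other DKO libraries here, and all 3 lay above WT. Without DKO 3 the difference was 0.23 for Psma6 and 0.17 for Psma5 (0.30 with it), and both calls were kept. Psma4 changed by 0.31 (SE 0.06, adjusted p = 0.0012), Psma7 by 0.26 (SE 0.06, adjusted p = 0.002) and Psma2 by 0.25 (SE 0.06, adjusted p = 0.0072). Psma1 and Psma3 had log2 differences of 0.13 (SE 0.06, adjusted p = 0.086) and 0.12 (SE 0.12, adjusted p = 0.46), and the DKO libraries of Psma3 ran from 80.9 to 126 CPM on both sides of the WT values. Psma8, the alpha subunit of the testis form of the proteasome and a paralog of Psma7 whose reads may be shared with it, was scarce, at 3.21, 3.05 and 2.72 CPM in WT and 2.70, 2.42 and 2.96 in DKO.

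All of the ATPase ring rose: 6 of its 6 genes (Psmc1 to Psmc6) passed, by 0.16 to 0.34. All 6 calls were lost with scaling by total counts, and over the 14 alternatives Psmc4 lost its call under 8 and Psmc2 under 6. Psmc4 was at 101, 100.5 and 104 CPM in WT and 118, 120.4 and 105 in DKO (log2 difference 0.17, SE 0.06, adjusted p = 0.031). Psmc1 changed by 0.20 (SE 0.06, adjusted p = 0.011) and Psmc2 by 0.16 (SE 0.05, adjusted p = 0.029). The ATPase with the largest value, Psmc6, was high in 1 library. It was at 96.3, 95.7 and 138 CPM in the DKO libraries against 91.2, 84.6 and 85.0 in WT, and its call (log2 difference 0.34, SE 0.11, adjusted p = 0.027) was lost without DKO 3, where the difference was 0.14.

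Of the 11 non-ATPase subunits of the regulatory particle, 8 rose (Psmd1, Psmd2, Psmd6, Psmd8, Psmd11, Psmd12, Psmd13 and Psmd14), by 0.14 to 0.38. Psmd8, a lid subunit, was the most abundant member in CPM per kb of transcript in WT, and its level was 228, 232 and 229.7 CPM in WT and 294, 312 and 290.3 in DKO. The difference was 0.38 (SE 0.06, adjusted p = 0.0001), and the lowest DKO library lay above all the other 9 libraries. Psmd11, a lid subunit linked to the assembly of the particle, was at 111, 112 and 105 CPM in WT and 128, 133 and 131 in DKO (log2 difference 0.25, SE 0.05, adjusted p = 0.00087). The lid's deubiquitinase Psmd14 was at 97.3, 87.8 and 97.4 CPM in WT and 104, 107 and 133 in DKO (log2 difference 0.28, SE 0.08, adjusted p = 0.011), with DKO 3 apart from the other DKO libraries. The ubiquitin receptor Psmd4 did not pass, at 97.1, 91.9 and 95.5 CPM in WT and 103, 106 and 98.4 in DKO (log2 difference 0.11, SE 0.05, adjusted p = 0.12), although its groups did not overlap. Psmd3 and Psmd7 did not pass either, at 0.16 (SE 0.06, adjusted p = 0.066) and 0.19 (SE 0.08, adjusted p = 0.063). Without DKO 3 the differences were 0.16 for Psmd14, 0.15 for Psmd12 and 0.15 for Psmd6, which kept their calls, and 0.09 for Psmd1, which lost it, while Psmd3 and Psmd4 then passed. Psmd1 and Psmd2 each lost their call under 7 of the 14 alternatives.

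The chaperones that assemble the particles mostly did not pass. The exception was Psmd10 (gankyrin), a chaperone of the base of the regulatory particle, at 27.2, 29.6 and 29.3 CPM in WT and 39.3, 43.3 and 42.0 in DKO. Its log2 difference of 0.53 (SE 0.07, adjusted p = 2.8e-05) was the second largest of all members, and no DKO library overlapped another genotype. Its fellow base chaperones Psmd5 and Psmd9 had differences of 0.12 (SE 0.07, adjusted p = 0.22) and -0.02 (SE 0.07, adjusted p = 0.89), and Psmd9 lay at 28.6, 29.4 and 30.1 CPM in WT and 29.8, 30.4 and 27.0 in DKO. The 4 chaperones of the core (Psmg1, Psmg2, Psmg3 and Psmg4) had log2 differences between 0.05 and 0.13, and 0 of the 4 passed. Psmf1, an inhibitor of the core, was at 32.4, 31.5 and 33.4 CPM in WT, 27.7, 28.4 and 30.5 in Cbl-/- and 31.5, 31.9 and 27.2 in DKO. Its log2 difference from WT was -0.10 (SE 0.07, adjusted p = 0.28) for DKO. For Cbl-/- it was -0.17 (SE 0.07, adjusted p = 0.18), and neither passed.

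**Figure D3:**
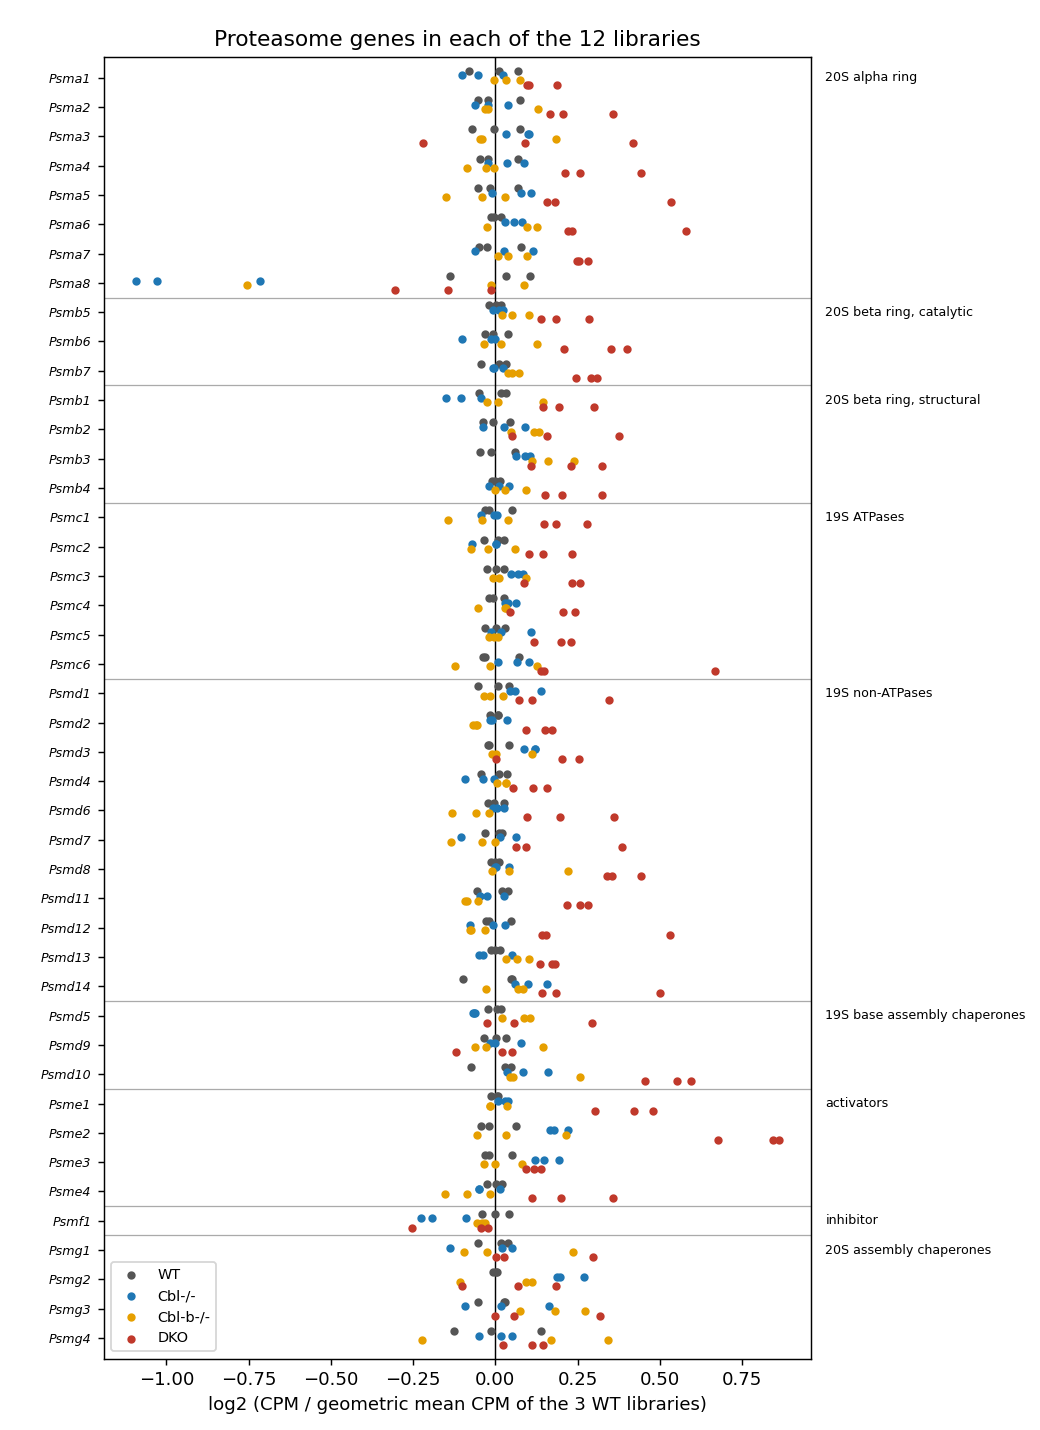
Log2 of each member's CPM over its geometric mean in WT (horizontal axis), with 1 point per library coloured by genotype, for the 44 members grouped by role (rows). The DKO points lie to the right of WT in most rows, 1 DKO point stands far from its fellows in several of them (Psmc6, Psma6), and Psma8 stands out as low in Cbl-/-.

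The single knockouts showed little of this. In Cbl-/-, 0 members rose and 1 fell against WT, where 9.87% of all genes tested passed, 4.19% downward. At an unadjusted p below 0.05 there were 5 members, 3 of them higher. The share of all genes at that unadjusted level was not counted, here or in the comparisons below. The gene that fell was Psma8, at 3.21, 3.05 and 2.72 CPM in WT and 1.46, 1.82 and 1.40 in Cbl-/- (log2 difference -0.95, SE 0.23, adjusted p = 0.011). The groups did not overlap, but these are few counts, between 44 and 135 per library. With only these genotypes in the fit, 6 members passed, 4 higher and 2 lower, where 2753 of 12232 genes passed, 1484 higher and 1269 lower. The call of Psma8 was lost when WT 1, Cbl-/- 1 or Cbl-/- 3 was left out. The largest positive differences, those of Psmg2 at 0.22 (SE 0.08, adjusted p = 0.13), Psme2 at 0.19 (SE 0.07, adjusted p = 0.11) and Psme3 at 0.15 (SE 0.05, adjusted p = 0.073), did not pass. For Psme2 the Cbl-/- libraries (73.0, 70.3 and 70.9 CPM) all lay above WT (60.8, 61.8 and 65.5 CPM).

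In Cbl-b-/-, 0 members passed against WT with edgeR's test, where 0.489% of all genes did. 1 member had an unadjusted p below 0.05 (Psmb3), and DESeq2 and limma-voom also called 0. The log2 differences lay between -0.20 and 0.18. The library Cbl-b-/- 2 held the highest value of its genotype for 27 of the 44 members. Between Cbl-b-/- and Cbl-/- directly, edgeR called 0 members against 7.37% of all genes, with 3 at an unadjusted p below 0.05, and DESeq2 called 1 and limma-voom 0. The comparisons with WT share its 3 libraries.

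DKO also stood above each single knockout. Against Cbl-/-, 25 members rose and 0 fell, where 29.6% of all genes passed, 16% upward. Against Cbl-b-/-, 28 rose and 0 fell, where 33.2% of all genes passed, 17.7% upward. In all, 21 members were higher in DKO than in each of the other 3 genotypes, which 11% of all genes tested were: Psma2, Psma4, Psma5, Psma6, Psma7, Psmb1, Psmb4, Psmb5, Psmb6, Psmb7, Psmc1, Psmc2, Psmd2, Psmd6, Psmd8, Psmd10, Psmd11, Psmd12, Psme1, Psme2 and Psme4. These calls share the 3 DKO libraries. With scaling by total counts, 15 members passed against Cbl-/- (14 of them higher) and 13, all higher, against Cbl-b-/-. Of 12671 genes, that scaling gave 1362 higher and 2747 lower against Cbl-/-, and 1543 higher and 3207 lower against Cbl-b-/-. Without Cbl-b-/- 3, 17 members passed against Cbl-b-/-, all higher, where 3493 of 12859 genes passed, 1905 of them higher. With only the genotypes compared in the fit, 16 members passed against Cbl-/- and 15 against Cbl-b-/-, all higher. Over all genes, 2954 of 12359 (1644 higher) and 2760 of 12348 (1553 higher) then passed. Without DKO 3, Psma5 did not pass against Cbl-/-, at 0.11 in place of 0.24. Psmd10 stood at 30.4, 32.1 and 29.4 CPM in Cbl-/- and 29.6, 34.3 and 29.8 in Cbl-b-/-, with DKO higher by 0.44 (SE 0.07, adjusted p = 0.00026) and 0.41 (SE 0.07, adjusted p = 0.0004). Psmb7 stood at 99.4, 102 and 99.6 and 103, 105 and 104 CPM, with DKO higher by 0.28 (SE 0.05, adjusted p = 0.00036) and 0.23 (SE 0.05, adjusted p = 0.0016). The Psmd10 libraries of both single knockouts and the Cbl-/- libraries of Psmb7 overlapped WT, and the Cbl-b-/- libraries of Psmb7 lay just above the WT range.

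Whether the DKO value exceeded what the 2 single knockouts add up to was tested on the log2 scale as the difference of DKO from Cbl-b-/- less the difference of Cbl-/- from WT. This departure from additivity passed for 15 members, all positive (Psmd12 at 0.37, or 0.23 without DKO 3), where 15.7% of all genes tested passed, 8.39% upward. The departure was 0.54 for Psme2 and 0.38 for Psme1. It was 0.35 for Psmd11, whose libraries overlapped between WT and each single knockout (WT 111, 112 and 105 CPM, Cbl-/- 106, 112 and 108, Cbl-b-/- 106, 103 and 103) and lay higher in DKO (128, 133 and 131 CPM). Psma8 departed by 1.00 through its low Cbl-/- value. The count was 3 with scaling by total counts, all higher, where 711 of 12671 genes passed upward and 1719 downward. The median departure was then 0.07 over members and -0.11 over all genes. The count of members was 9 with no filter on low counts, where 987 of 15555 genes passed upward. It was 4 to 7 when WT 1, WT 2, WT 3, Cbl-/- 1, Cbl-/- 2, Cbl-/- 3, Cbl-b-/- 1 or Cbl-b-/- 3 was left out. Over all genes, 789 of 12905 then passed upward without WT 3 and 1008 of 12835 without Cbl-b-/- 1, the fewest and the most.

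The DKO libraries were not alike. The median within-genotype SD of the members' log2 levels was 0.10 in DKO, against 0.04 in WT, 0.05 in Cbl-/- and 0.06 in Cbl-b-/-. Over all genes at least as abundant as the scarcest member, it was 0.13 in DKO, 0.06 in WT, 0.06 in Cbl-/- and 0.08 in Cbl-b-/-. The wider spread in DKO was thus not particular to the members. DKO 3 was the deepest library, and its granulocyte (87.0 CPM) and monocyte (189 CPM) marker sums were the highest of the 12. Its difference from the mean of DKO 1 and DKO 2 correlated with the GC content of the gene's principal transcript, with a Pearson r of -0.735 across the 44 members and -0.612 across 11927 genes. Genes of 1 library are not independent, so this is a description. Of the 22 members with a GC content at or below 49.6%, 20 were higher in DKO 3, with a median difference of 0.20 on the log2 scale, and of the other 22 members 6 were higher, with a median of -0.09. Psmc6 was higher by 0.52 and Psma3 by 0.49, while Psmd3 and Psmf1 differed by -0.23 and -0.22. The rise against WT was seen on both sides of the division, with 16 of the 22 lower-GC members and 14 of the 22 higher-GC members called higher, against 22.6% and 17.7% of all genes on the same sides. Without DKO 3, 30 members rose against WT, Psmc6 and Psmd1 no longer among them and Psmd3 and Psmd4 added, 28 against Cbl-/- and 26 against Cbl-b-/-. Calls over all genes were then more as well, with 2563, 2285 and 2417 of 12825 higher, against 2423, 2027 and 2237 of 12671 with DKO 3. The members' median log2 differences were smaller, at 0.17, 0.175 and 0.16 without DKO 3 and 0.20, 0.19 and 0.19 with it. The part of GC content and of the marker genes in the differences between DKO libraries was not tested.

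**Figure D4:**
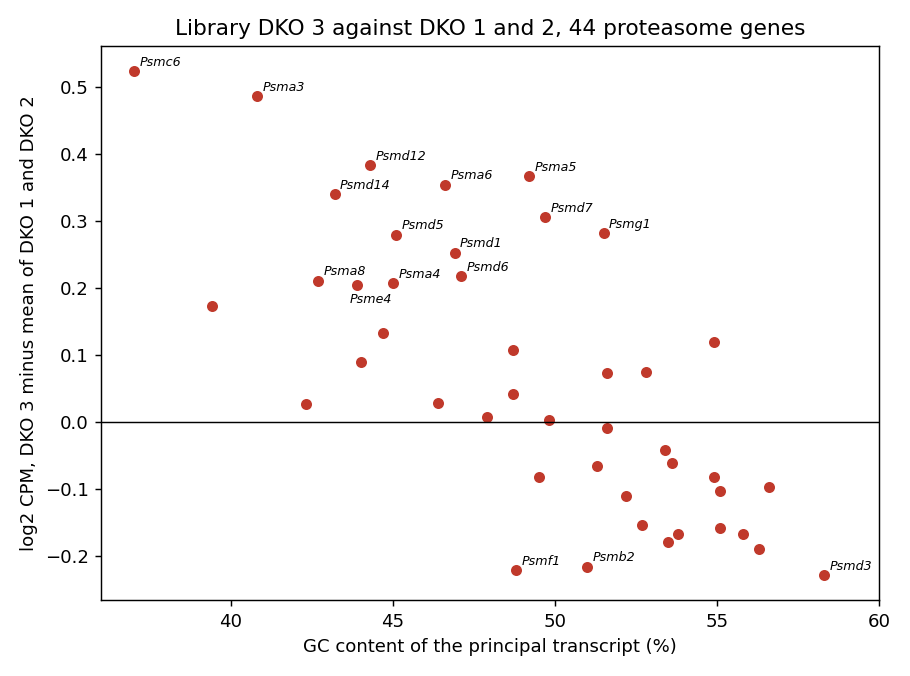
Difference in log2 CPM between DKO 3 and the mean of DKO 1 and DKO 2 (vertical axis) against the GC content in percent of the principal transcript (horizontal axis), 1 point per member, n = 44. The points descend from left to right, with a Pearson r of -0.735.

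Per length of transcript, the core subunits had the highest medians. In WT, alpha subunits other than Psma8 lay between 33.2 and 139 CPM per kb with a median of 106, catalytic beta subunits between 86.1 and 127, and structural beta subunits between 73.95 and 107. The ATPases lay between 38.9 and 91.7 (median 71.3) and the non-ATPases between 38.5 and 149 (median 61.1). Chaperones were scarcer, with base chaperones between 11.3 and 20.1 CPM per kb and core chaperones between 11.2 and 24.9. The inhibitor Psmf1 stood at 8.51. The order of the most abundant members in WT was Psmd8 at 149 ± 1.2 (SD, n = 3), Psma1 at 139 ± 7.2 and Psmb5 at 127 ± 1.5. Of the 43 pairs of neighbours in the order of all 44 levels, 25 lay within the SDs of their libraries. The activators ran from Psme4 at 13.3 to Psme1 at 97.9 CPM per kb. Psmd8 stood at 194 ± 7.5 CPM per kb in DKO, Psme1 at 129 ± 8.0 and Psme2 at 113 ± 7.8.

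**Figure D5:**
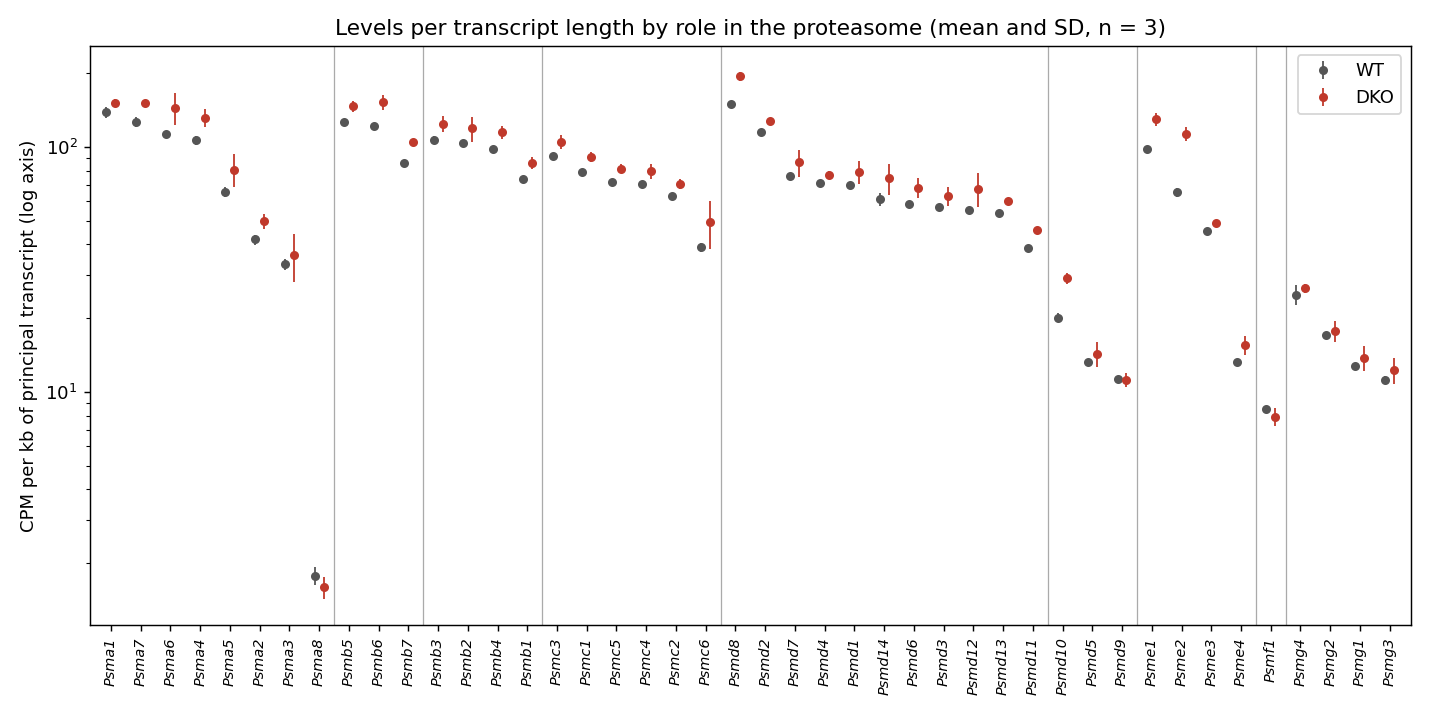
Level in CPM per kb of principal transcript (log axis) of each member in WT and DKO, with the mean and SD of 3 libraries, by role. Core subunits other than Psma8 and the subunits of the regulatory particle lie above the chaperones and Psmf1, and Psma8 is the lowest.

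Likeness among the members was described by the Pearson correlation of each member's log2 level with the median of the others over the 12 libraries, which fall into the 4 genotypes. The highest values were those of Psme2 (0.978), Psme1 (0.976) and Psmb7 (0.959). The lowest were those of Psmd9 (-0.355), Psmf1 (-0.326) and Psmg2 (0.0038). The members furthest from the common pattern were thus a base chaperone, the inhibitor and a core chaperone.

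Other genes of the pathway were read from lists. Among 13 partners of the proteasome, 3 rose in DKO against WT and 0 fell, where 19.1% of all genes rose and 16.3% fell. They were Pomp, the maturation factor of the core, at 0.19 (SE 0.06, adjusted p = 0.021), and the proteasome-bound deubiquitinases Usp14 and Uchl5, at 0.30 (SE 0.10, adjusted p = 0.028) and 0.36 (SE 0.12, adjusted p = 0.029). Without DKO 3 the difference was 0.11 for Usp14, still called, and 0.14 for Uchl5, no longer called. The ubiquitin receptor Adrm1 had 0.12 (SE 0.06, adjusted p = 0.15) and the small lid subunit Sem1 0.15 (SE 0.08, adjusted p = 0.13). Of 10 genes of the recovery pathway, in which the transcription factor Nrf1 raises subunit genes when proteasomes are inhibited, 0 rose and 3 fell, beside the same shares of all genes: the small Maf genes Mafg at -0.45 (SE 0.07, adjusted p = 0.00011) and Maff at -0.59 (SE 0.16, adjusted p = 0.0085), and Ddi2, the protease that releases Nrf1, at -0.18 (SE 0.06, adjusted p = 0.022). Nfe2l1, which encodes Nrf1, was at 193, 203 and 191 CPM in WT and 197, 197 and 168 in DKO, with a log2 difference of -0.06 (SE 0.06, adjusted p = 0.46).

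Of 12 genes that deliver or unfold substrates, 1 rose and 0 fell in this contrast, in which 19.1% of all genes rose. It was Rad23b, a shuttle for ubiquitylated proteins, at 0.32 (SE 0.05, adjusted p = 0.00013). Of 12 genes of ubiquitin and its activation, 4 rose and 0 fell. Among the 4 were Rps27a, which encodes ubiquitin fused to a ribosomal protein, at 0.37 (SE 0.11, adjusted p = 0.015) with DKO libraries at 388, 393 and 543 CPM against 328, 339 and 359 in WT, and the conjugating enzyme Ube2d3 at 0.20 (SE 0.07, adjusted p = 0.042). Of 14 genes of the immunosubunits and class I presentation, 14 rose. B2m, the light chain of class I molecules, changed by 0.76 (SE 0.09, adjusted p = 5.7e-06), the class I transactivator Nlrc5 by 0.76 (SE 0.08, adjusted p = 1.1e-06) and the peptide transporter gene Tap1 by 0.68 (SE 0.08, adjusted p = 5.2e-06). In Cbl-/- and in Cbl-b-/-, 0 genes of these 5 lists passed against WT. Psme1 and Psme2 are, as background, known targets of interferon as well.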

How the data were processed

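RNA was read from 12 libraries prepared with a stranded mRNA kit, per the labels' protocols, which also mention an equimolar pooling step without naming its object. The deposited table holds whole-number exon counts per Ensembl gene from the authors; the build is GRCm38.p5 per the submitters' processing notes, and aligner, counter and strand setting were not given in the sources used here. Columns were matched to samples by name, and 0 columns were left unmatched. Symbols, positions and principal transcripts came from the GRCm38 annotation.

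The counts were filtered with filterByExpr, scaled by TMM and fitted with edgeR 4.0.16 (robust quasi-likelihood, all 4 genotypes in 1 fit, R 4.3.3). P-values were adjusted by Benjamini-Hochberg over 12671 genes at a threshold of 0.05. SE is the absolute log2 difference over the square root of F. Total counts of 21048103 to 43946503 limit precision for scarce members. Replicates differed by more than counting noise in 12 of 12 pairs (chi-square per degree of freedom 3.93 to 55.3).

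Named members are the 16 with the smallest p against WT plus representatives of each role; a few genes of the lists are not reported here; members and lists were chosen with earlier results of these data known. Alternatives were DESeq2 1.42.0, limma 3.58.1 voom, other scalings and filters, fits of only the genotypes compared, a replicate block and leaving out each library.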

Additional observations from a re-analysis of the deposited data

Results flagged for a closer look

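15 members were singled out because the effect of losing Cbl differed with the Cbl-b label, by the test of the difference itself (DKO from Cbl-b-/- less Cbl-/- from WT, log2, edgeR's quasi-likelihood test, adjusted p from 0.0015 to 0.049, 3 libraries a genotype). Among activators the departures were 0.54 for Psme2 (SE 0.10), 0.38 for Psme1 (SE 0.08) and 0.34 for Psme4 (SE 0.09). Among core subunits they were 0.32 for Psmb6, 0.31 for Psma4, 0.27 for Psmb1 and 0.22 for Psmb7. In the regulatory particle they were 0.37 for Psmd12 (0.23 without DKO 3), 0.35 for Psmd11, 0.28 for Psmd8, 0.28 for Psmd6, 0.26 for Psmc1 and 0.20 for Psmd2, and 0.32 for its chaperone Psmd10. Psma8 departed by 1.00 (SE 0.31), on few counts and through its low level in Cbl-/-. The 15 departures share all 12 libraries and are not separate evidence.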

How the results depend on the processing

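The alternatives were recorded for 57 genes: the 44 members, the 3 immunosubunits, Cbl, Cblb, Nfe2l1, Nfe2l2, Maff, Adrm1, Sem1, Pomp, Usp14 and Uchl5. None of these that passed changed direction. Mafg, Ddi2, Rad23b, Rps27a, Ube2d3, B2m, Nlrc5, Tap1 and Irf9 were not followed under the alternatives. Of the 30 members that rose in DKO against WT, 12 (Psma2, Psma4, Psma6, Psma7, Psmb4, Psmb6, Psmb7, Psmd8, Psmd10, Psmd11, Psme1 and Psme2) were called under all 14 alternatives. Scaling by total counts gave 15 members in DKO against WT, 15 against Cbl-/- (14 higher, 1 lower), 13 against Cbl-b-/-, 2 in Cbl-/- against WT and 3 for the departure from additivity. For the departure, 711 of 12671 genes then passed upward and 1719 downward. Fitting only the genotypes compared gave 17, 16 and 15 members for DKO against WT, Cbl-/- and Cbl-b-/-, and 6 (4 higher, 2 lower) for Cbl-/- against WT. Over all genes, the fits of DKO with WT, Cbl-/- and Cbl-b-/- called 3582 of 12484, 2954 of 12359 and 2760 of 12348. The fit of Cbl-/- and WT called 2753 of 12232 genes. DESeq2 gave 31 for DKO against WT, 2 for Cbl-/- against WT and 1 for Cbl-b-/- against Cbl-/-. No filter gave 9 departures from additivity, and a filter at 5 CPM gave 0 calls in Cbl-/- against WT. Leaving out 1 library gave 20 to 30 members for DKO against WT, 18 to 28 against Cbl-/-, 17 to 26 against Cbl-b-/- (17 without Cbl-b-/- 3), 0 to 1 for Cbl-/- against WT, 0 to 1 for Cbl-b-/- against Cbl-/- (1 without Cbl-b-/- 2), 0 for Cbl-b-/- against WT and 4 to 16 for the departure. The cause of these changes was not tested, beyond the fewer libraries or genes that an alternative leaves. The replicate numbers did not pair the libraries: 0 of 18 same-numbered pairs had a correlation of deviations over 0.1, and 4 of 12 libraries correlated best with their own number. With a replicate block the counts were 1, 0 and 30 for Cbl-/-, Cbl-b-/- and DKO against WT, 23 and 28 for DKO against Cbl-/- and Cbl-b-/-, 0 between the single knockouts and 11 for the departure. Depth limits Psma8 most, at 44 to 135 counts per library.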

Other observations

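Psme1 and Psme2 lie in a short stretch of chromosome 14, and their neighbours, chosen by position, were read in the same contrast. Emc9 lies between them on the minus strand and overlaps the end of Psme1, and Rnf31 and Irf9 follow on the other side of Psme2. In DKO against WT the log2 difference was -0.17 (SE 0.14, adjusted p = 0.39) for Emc9, 0.03 (SE 0.08, adjusted p = 0.79) for Rnf31, a subunit of a linear ubiquitin ligase, and -0.15 (SE 0.06, adjusted p = 0.058) for Dcaf11 upstream of Psme1. Irf9, a subunit of the interferon-activated complex ISGF3, rose by 0.44 (SE 0.07, adjusted p = 0.00024), from 60.6 to 81.9 CPM. Fitm1, which lies beside Psme1, was not tested.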
